A study of Homo sapiens with 18 samples.

Results

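The interleukin-1 family ligands and receptors examined here are 10 genes, chosen by name: the agonist ligands IL1A, IL1B, IL18, IL33 and IL36G, the antagonists IL1RN and IL36RN, and the receptor genes IL1R1, IL1RAP and IL1R2. They were read, by symbol and joined by Entrez ID, from the 3 deposited tables of knockout against WT, which together list 19401 genes. All 10 were in both RUNX1 tables, and 9 were in the CBFB table, which does not list IL1A. The cells were MCF10A, an immortalized, non-tumorigenic human mammary epithelial line, grown in medium with horse serum, insulin, EGF, hydrocortisone and cholera toxin, and no group received a further treatment. CBFB KO (3 samples) lacked CBFB, the partner subunit that helps RUNX proteins bind DNA, and was compared with its own WT (3 samples). RUNX1 KO1 and RUNX1 KO2 (4 samples each) were edited in RUNX1 and were both compared with the WT of the RUNX1 experiment (4 samples). The knockouts were made with CRISPR-Cas9 and grown from single cells. The design text gives 1 clone for CBFB and 2 for RUNX1, so each knockout group is 1 clone, and the effect of the gene and the effect of the clone cannot be told apart. Nothing in the labels says that samples of a group came from separate cultures, so p-values measure only the spread between these samples, which may be technical.

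Interleukin-1 alpha and beta are alarm signals that bind the receptor IL1R1 together with its accessory chain IL1RAP. The pair recruits MYD88 and IRAK kinases and switches on NF-kB, which turns on chemokines and other inflammatory genes. The family carries its own brakes. The receptor antagonist encoded by IL1RN binds IL1R1 without signaling, the decoy receptor encoded by IL1R2 captures ligand, and the antagonist encoded by IL36RN blocks the IL-36 receptor. Epithelial cells make several of these proteins, holding interleukin-1 alpha and interleukin-18 in store and releasing them on damage.

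For each gene the tables hold the mean of the normalized read counts over all samples compared, a log2 fold change with standard error (SE), and p-values, but nothing per sample. Levels in WT and in knockout are therefore those implied by the mean and the fold change, with equal numbers of samples in each group, and no SD can be given. The means summed to between 16467400 and 20214423 normalized counts per library. A gene was called changed at an adjusted p under 0.05 with a fold change of at least 2. KO2 was the least precise, with a median SE of the log2 fold change of 0.21 over genes averaging at least 100, against 0.12 for CBFB KO and 0.10 for KO1. CBFB mRNA fell by 4.88 on the log2 scale in CBFB KO (SE 0.14, adjusted p = 1.39e-252). RUNX1 mRNA was not lower in the libraries labelled RUNX1 KO but higher by adjusted p (log2 fold change 0.54, adjusted p = 1.45e-08 for KO1; 0.46, adjusted p = 0.00470 for KO2), so mRNA does not check those labels, and every direction given for them is that of libraries so labelled. Of 9 markers of mammary epithelium, all were listed in the CBFB and KO1 tables and 8 in the KO2 table, with means of at least 729.9. CDH1 and EPCAM among them are not specific to basal cells.

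Members called higher numbered 1 of 7 tested in CBFB KO, 4 of 8 in RUNX1 KO1 and 5 of 8 in RUNX1 KO2, and no member was called lower. IL1B was called in all 3 tables. IL1A, IL1RN and IL36RN were called in both RUNX1 clones, and IL1R2 in KO2. Of all genes tested for CBFB KO, 1.72% were called higher and 1.26% lower. For KO1 these shares were 3.36% and 1.57%, and for KO2 they were 3.90% and 1.58%. The median log2 fold change of the members tested was 0.26, 1.0 and 1.46 in CBFB KO, KO1 and KO2, against -0.01, 0.00 and 0.02 for all genes tested. By adjusted p alone, 1 member passed for CBFB KO, 6 for KO1 (IL1R1 higher and IL1RAP lower among them) and 5 for KO2, against 19.7%, 39.5% and 14.8% of all genes tested. Members that passed a filter on low means include some that are high in only one group, so these counts describe the tables. KO1 and KO2 share their WT samples and are set side by side throughout.

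**Figure D1:**
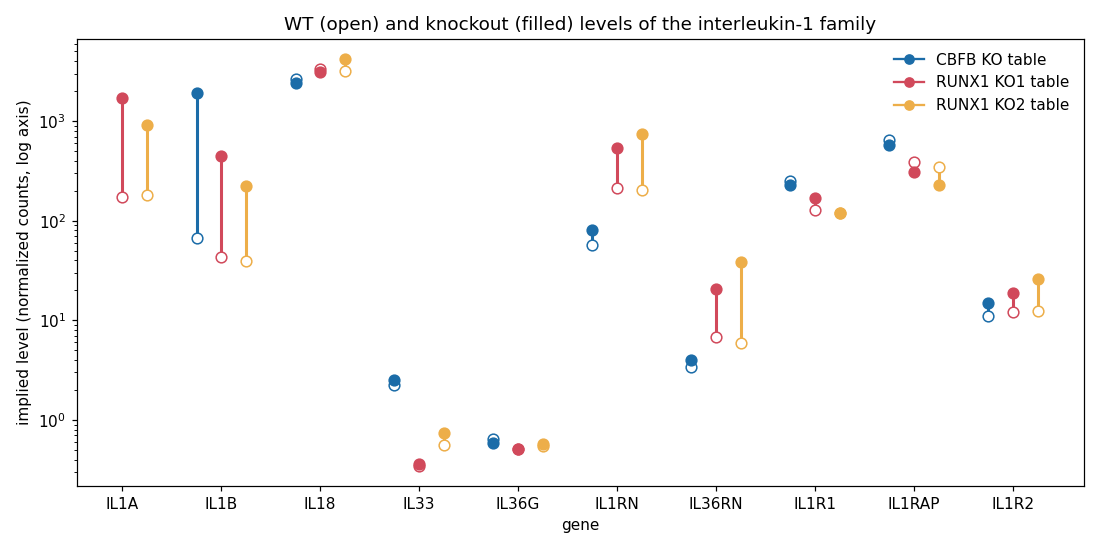
Levels implied by the deposited means and fold changes, in normalized counts on a log axis, for each gene and table; open points are WT and filled points knockout. The longest line is that of IL1B in the CBFB table, from 66.8 to 1927.2, while the points of IL18 nearly touch. Tables were normalized separately, and levels of different genes also depend on transcript length.

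The ligand genes lie next to each other on chromosome 2. In the RefSeq order of protein-coding genes the run from IL1A to IL1RN holds 9 genes, which are IL1A, IL1B, IL37, IL36G, IL36A, IL36B, IL36RN, IL1F10 and IL1RN. The called members sat at its 2 ends, with IL1A and IL1B at one and IL36RN and IL1RN near the other. The 5 remaining genes of the run, IL37, IL36G, IL36A, IL36B and IL1F10, had means of at most 1.0 in every table that lists them, and none had an adjusted p. SLC20A1, a phosphate transporter gene on the IL1A side, was lower by adjusted p in every table without reaching the fold threshold, at -0.65 for CBFB KO, -0.57 for KO1 and -0.55 for KO2. CKAP2L, the immediate neighbor of IL1A, was at -0.10, 0.14 and -0.30, with adjusted p of at least 0.314. PSD4, the gene after IL1RN, was at 0.25, 0.43 and 0.24, and passed the adjusted p threshold in KO1 (5.92e-06). PAX8, the next gene, was at 0.48, 1.09 and 0.68 and was called in KO1 (adjusted p = 1.41e-04). ZNG1B, after PAX8, was at -0.18, -0.25 and -0.01, and was lower by adjusted p in KO1 (0.0151) without reaching the fold threshold.

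**Figure D2:**
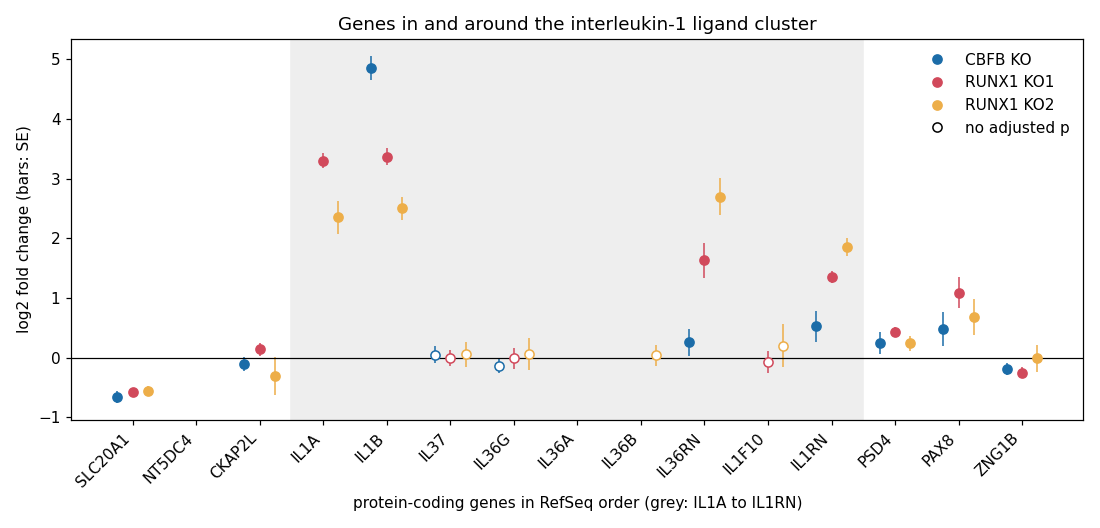
Log2 fold change with its SE (bars) for the genes of the ligand run on chromosome 2 (grey) and 3 genes on either side, in RefSeq order; colors are the tables, and open points have no adjusted p. Points above 1 lie at IL1A, IL1B, IL36RN and IL1RN, and at PAX8 in KO1 outside the run.

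RefSeq promoter windows (GRCh38.p14, 250 bases before to 50 after each annotated start) were read for 9 of the 10 genes, in 18 windows. They are shown because the proteins of the 2 targeted genes, CBFB and RUNX1, act together at RUNX sites. The core RUNX letters TGTGGT, searched on both strands, were in 3 of the 18 windows, those of IL1R1, IL36G and IL1RN, and in 13.1% of all 35116 promoter windows. In the stretches below, written 5′ to 3′ on the gene's strand, capitals mark these letters or their reverse complement.

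IL1R1, chr2:102142056-102142085, plus strand: ccccaagTGTGGTatcaagattttatagta
IL36G, chr2:112977772-112977801, plus strand: acctcatttcctTGTGGTtgattttgtgcg
IL1RN, chr2:113127561-113127590, plus strand: atttctttataaACCACAactctgggcccg

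The motif began 25 bases before an annotated start of IL1RN, 243 before that of IL1R1 and 222 before that of IL36G. Of these genes IL1RN was called, in the RUNX1 clones, and IL1R1 and IL36G were not called in any table. The windows of IL1A, IL1B and IL36RN, which were called, did not hold these letters. The related letters TGCGGT were in 0 of the 18 windows and in 7.29% of all. The AP-1 letters TGAGTCA, which overlap neither of the others, were in windows of IL1A and IL1RN and in 4.95% of all, and IL1A had them on both strands, as the capitals show.

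IL1A, chr2:112784487-112784516, minus strand: gcgaagaagacTGACTCAggcttaagctgc
IL1A, chr2:112784437-112784466, minus strand: tcattggcgttTGAGTCAgcaaaggtattg
IL1RN, chr2:113117737-113117766, plus strand: ttctgctagccTGAGTCAccctcctggaaa

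These matches describe the letters of short windows and no binding was measured in the files used here.

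IL1B, which encodes interleukin-1 beta, was higher in every knockout. In the CBFB table its mean was 997.0 normalized counts, which implies 66.8 in WT and 1927.2 in CBFB KO. The fold change was 28.8 (95% interval 22.1 to 37.6), or 4.85 on the log2 scale (SE 0.20, adjusted p = 4.28e-132). The protein is made as an inactive precursor, so mRNA does not measure the active cytokine.

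In the RUNX1 experiment IL1B rose from 43.6 to 450.9 normalized counts in KO1, a fold change of 10.3 (95% interval 8.43 to 12.7, adjusted p = 2.29e-109). It rose from 39.1 to 221.5 in KO2, a fold change of 5.66 (4.34 to 7.39, adjusted p = 1.36e-34). By fold change IL1B came first among the members in CBFB KO and KO1 and IL36RN came first in KO2, but the interval of IL1B overlaps that of IL1A in KO1 and that of IL36RN in KO2.

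IL1A, which encodes interleukin-1 alpha, was higher in both RUNX1 clones. It rose from 172.2 to 1700.8 normalized counts in KO1, a fold change of 9.87 (95% interval 8.23 to 11.8, adjusted p = 7.70e-132). It rose from 181.6 to 924.3 in KO2, a fold change of 5.09 (3.47 to 7.46, adjusted p = 6.42e-15). Unlike interleukin-1 beta, the alpha form is active before it is cut.

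IL1A was not analysed in CBFB KO because its row is not in that table. Of 10699 genes averaging at least 100 normalized counts for KO1, 18 have no row for CBFB KO, and 4 of these, IL1A, CXCL8, PTGS2 and TNFAIP3, are on the lists used here. The count of members for CBFB KO above therefore leaves out IL1A. List counts for CBFB KO below leave out CXCL8, PTGS2 and TNFAIP3. All 4 genes were higher in the RUNX1 clones. The ratio of IL1B to IL1A moved little in the RUNX1 experiment. Per kilobase of transcript, the IL1B level was 0.330 of the IL1A level in WT and 0.345 in KO1. From the KO2 table the same ratio was 0.281 in WT and 0.312 in KO2.

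The other agonist ligands did not pass the thresholds. IL18 encodes a cytokine that epithelial cells hold as a ready precursor, and per kilobase it had the highest implied WT level of the members, 1575.2 normalized counts for the CBFB experiment and 1978.6 from the KO1 table. Its log2 fold change was -0.15 in CBFB KO (SE 0.08, adjusted p = 0.175), -0.09 in KO1 (SE 0.09, adjusted p = 0.446) and 0.38 in KO2 (SE 0.24, adjusted p = 0.343). The 95% intervals of the fold change, 0.815 to 1.0, 0.829 to 1.06 and 0.945 to 1.79, all stay under the fold threshold of 2. The KO1 value turned to 0.07 (adjusted p = 0.580) with the length and GC trend of transcripts removed.

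IL33, a nuclear alarm cytokine, had means of 2.40, 0.355 and 0.652 normalized counts (CBFB, KO1 and KO2 tables). IL36G, an IL-36 agonist of keratinocytes, had means of 0.616, 0.514 and 0.560. Neither had an adjusted p in any table, and a change in these genes was not detectable at this depth.

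**Figure D3:**
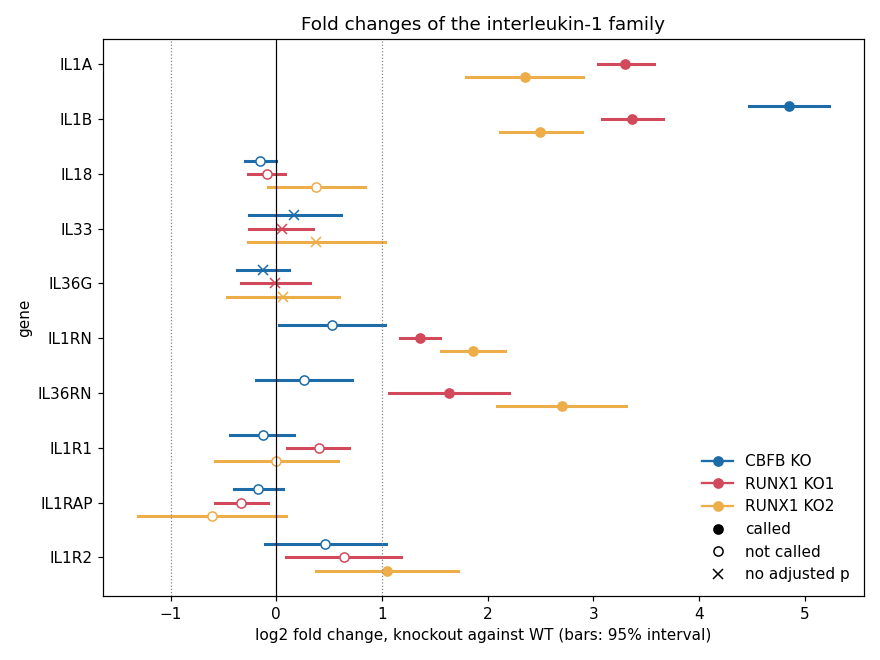
Log2 fold change of each gene against WT with its 95% interval (bars), by table; filled points were called, open points were not, and crosses have no adjusted p. Dotted lines mark a fold change of 2. IL1B lies to the right of them in all 3 tables and IL1RN and IL36RN in the RUNX1 clones, while IL18 lies near 0.

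The antagonists were called higher in the RUNX1 clones and were not called in CBFB KO. IL1RN, the receptor antagonist gene, rose from 210.8 to 540.3 normalized counts in KO1, a fold change of 2.56 (95% interval 2.24 to 2.93, adjusted p = 1.39e-41). It rose from 203.6 to 739.3 in KO2, a fold change of 3.63 (2.94 to 4.48, adjusted p = 9.16e-31). In CBFB KO it stood at 81.7 against 56.5 in WT, a fold change of 1.45 (1.02 to 2.05, adjusted p = 0.132).

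A 2-fold rise of IL1RN lies inside the interval for CBFB KO. IL36RN, the antagonist of the IL-36 receptor, was scarce in WT. It rose from 6.74 to 20.9 normalized counts in KO1 (fold change 3.10, 95% interval 2.10 to 4.60, adjusted p = 1.76e-07) and from 5.96 to 38.7 in KO2 (6.49, 4.27 to 9.89, adjusted p = 2.72e-16). In CBFB KO it stood at 4.05 against 3.38, a fold change of 1.20 (0.874 to 1.65, adjusted p = 0.488). Deposited fold changes are shrunk toward 0 at low means, which bears on IL36RN and IL1R2 most among the genes tested.

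The fold change of the agonist IL1B exceeded that of the antagonist IL1RN in every knockout, given here as a description with no test. The excess on the log2 scale was 4.32 for CBFB KO, 2.01 for KO1 and 0.64 for KO2. Per kilobase, IL1B went from 1.39 to 27.8 times the IL1RN level in the CBFB table. The same ratio went from 0.244 to 0.983 for KO1 and from 0.226 to 0.353 for KO2. IL1A per kilobase went from 0.739 to 2.85 times IL1RN in KO1 and from 0.807 to 1.13 times in KO2.

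The signaling receptor genes were not called in any table. IL1R1, the signaling receptor for both forms of interleukin-1, had a log2 fold change of -0.13 in CBFB KO (SE 0.15, adjusted p = 0.615), 0.40 in KO1 (SE 0.15, adjusted p = 0.0260) and 0.00 in KO2 (SE 0.30, adjusted p = 0.998). The KO1 value passed the adjusted p threshold without the fold threshold, and it missed the former after a trend on the length and GC of transcripts was taken out (0.33, adjusted p = 0.0697). IL1RAP, the shared accessory chain, was at -0.17 in CBFB KO (SE 0.12, adjusted p = 0.345), -0.33 in KO1 (SE 0.13, adjusted p = 0.0289) and -0.61 in KO2 (SE 0.36, adjusted p = 0.306). The KO2 interval, from -1.31 to 0.09, holds both no change and a fall past the fold threshold.

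IL1R2, the decoy receptor, was called higher in KO2, where it went from 12.5 to 25.9 normalized counts, a fold change of 2.08 (95% interval 1.30 to 3.31, adjusted p = 0.0180). In KO1 its log2 fold change was 0.64 (SE 0.28, adjusted p = 0.0553). That value passed the adjusted p threshold once fold changes were centered on the median gene (0.66, adjusted p = 0.0471) or the length and GC trend was removed (0.79, adjusted p = 0.0151). In CBFB KO it was 0.46 (SE 0.29, adjusted p = 0.290).

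The order of WT levels per kilobase was IL18, IL1RAP, IL1R1, IL1B, IL1RN, IL1R2, IL36RN, IL33 and IL36G for the CBFB experiment, running from 1575.2 down to 0.539 normalized counts. In the KO1 table IL1RN stood higher, at 109.7 against 29.4, and came second after IL18, followed by IL1A at 81.1 and IL1RAP at 71.7. As a share of the summed means of its table, IL1RN was 4.18 times higher in the WT of the RUNX1 experiment than in the WT of the CBFB experiment, and IL36RN 2.23 times higher. The WT of the CBFB experiment was the higher one for IL1B (1.37 times), IL1RAP (1.49), IL1R1 (1.75) and the scarce IL33 (5.77). The experiments were normalized separately and no value per sample was analysed here, so these WT differences were not tested and adjacent levels cannot be ranked against their spread.

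The response of IL1B was larger in CBFB KO than in either RUNX1 clone, while the responses of IL1RN and IL36RN were smaller. These differences compare a CBFB table with a RUNX1 table, which share no sample, by a two-sided normal test adjusted over all genes tested in both. For IL1B the log2 fold change differed by 1.48 from KO1 (SE 0.25, adjusted p = 2.96e-07) and by 2.35 from KO2 (SE 0.28, adjusted p = 2.09e-14). For IL1RN it differed by -0.83 from KO1 (SE 0.27, adjusted p = 0.0324) and -1.33 from KO2 (SE 0.30, adjusted p = 9.07e-04).

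IL36RN went the same way as IL1RN. Its difference was -1.37 from KO1 (SE 0.37, adjusted p = 0.00634) and -2.44 from KO2 (SE 0.39, adjusted p = 9.11e-08). Its mean was 3.71 for CBFB KO against 13.8 and 22.3 for the clones, and fold changes are shrunk more at lower means, so shrinkage and a smaller response cannot be told apart for IL36RN. IL1RN also had a lower mean for CBFB KO, 69.1 (SE of the log2 fold change 0.26), against 375.6 (SE 0.10) for KO1 and 471.4 (SE 0.15) for KO2. The same limit holds for IL1RN. For IL1B the mean was higher for CBFB KO, 997.0, against 247.3 for KO1 and 130.3 for KO2. The part of shrinkage in the differences of IL1B was not tested. Of the 7 members tested in both tables, 3 differed in each case, against 9.84% of all genes for KO1 and 2.90% for KO2. The differences of IL18, IL1R1, IL1R2 and IL1RAP did not pass. The widest of their 95% intervals ran from -1.48 to 0.29, for IL1R2 against KO2, and that of IL1R1 against KO1 ran from -0.95 to -0.11 (adjusted p = 0.0987). Experiment, clone and targeted gene cannot be told apart in these differences, and the WT levels of IL1RN and IL36RN also differed between the experiments as given above.

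**Figure D4:**
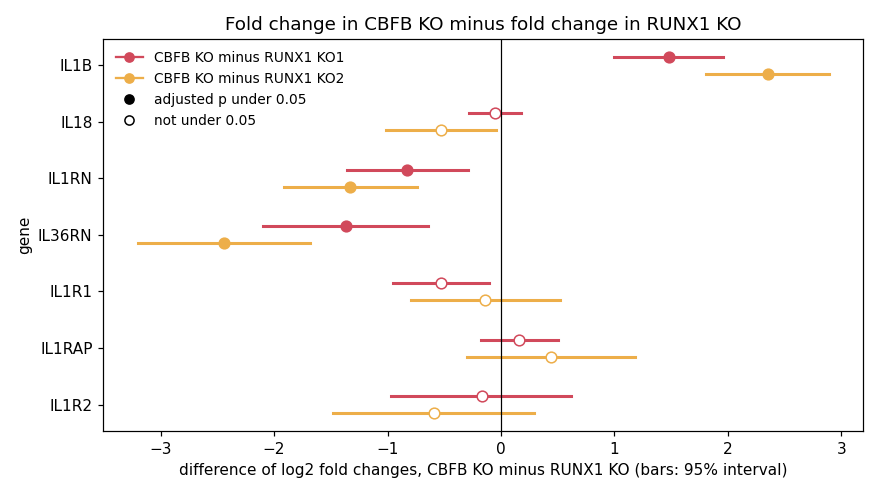
Log2 fold change in CBFB KO minus that in each RUNX1 clone, with 95% intervals (bars), for the 7 genes tested in both tables; filled points passed an adjusted p of 0.05. IL1B lies to the right of 0, at 1.48 and 2.35, and IL1RN and IL36RN to the left.

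A further list held 12 other genes of the family. These were the remaining ligands of the run and the receptors IL1RL1, IL1RL2, IL18R1 and IL18RAP. The others were the binding protein IL18BP, SIGIRR and the orphan receptors IL1RAPL1 and IL1RAPL2. Of this list, 1 of 4 tested was called higher for CBFB KO, 0 of 6 for KO1 and 0 of 6 for KO2. None was called lower. Of all genes tested, 1.72%, 3.36% and 3.90% were called higher, and the CBFB KO count rests on 1 gene. SIGIRR, a receptor that damps interleukin-1 signaling, rose in CBFB KO from 126.1 to 273.0 normalized counts (log2 fold change 1.11, adjusted p = 8.83e-12). In KO1 it was at 0.30 (adjusted p = 0.0524), and in KO2 at 0.81 (adjusted p = 0.116). With the length and GC trend removed, 0 genes of this list were called in CBFB KO. IL1RL2 and IL18R1, the receptors for the IL36 ligands and IL18, were not called in any table, with log2 fold changes between -0.34 and 0.14.

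Of 14 genes for maturation and release of the cytokines, 1 of 12 tested was called higher for CBFB KO, 3 of 13 for KO1 and 2 of 11 for KO2, and none was called lower. As given above, 1.72%, 3.36% and 3.90% of all genes were called higher. The median log2 fold change was 0.43, 0.31 and 0.21, against -0.01, 0.00 and 0.02 for all genes. NLRP1, an inflammasome sensor prominent in epithelium, was called in all 3, with log2 fold changes of 1.13 (adjusted p = 5.66e-04), 1.88 (9.95e-24) and 1.59 (8.46e-11). NLRP3, a sensor best known from myeloid cells, was at 0.40 in CBFB KO (adjusted p = 0.353) and was called at 1.06 in KO1 and 1.37 in KO2.

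PYCARD, the adaptor that links sensor and caspase, was called in KO1 (1.27, adjusted p = 8.39e-25) and is not in the KO2 table. In CBFB KO it was at 0.80 and passed the adjusted p threshold (1.31e-05) without the fold threshold. CASP1, the protease that cuts interleukin-1 beta and interleukin-18, was not called, at 0.42, -0.07 and 0.17. Its value in CBFB KO passed the adjusted p threshold (0.00651) without the fold threshold. GSDME, a pore-forming protein, was at 0.93, 0.91 and 0.79 and passed the adjusted p threshold in all 3 tables without the fold threshold.

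Of 24 genes that carry the signal from the receptor to NF-kB, 1 of 22 tested was called higher for CBFB KO, 2 of 23 for KO1 and 1 of 23 for KO2, and none was called lower. The share called in KO2 is near that of all genes, 3.90%, and those for CBFB KO and KO1 rest on 1 and 2 genes, against 1.72% and 3.36%. The medians were 0.28, 0.21 and 0.07, beside the same all-gene medians. IRAK2, a kinase of the receptor complex, was called in all 3, with log2 fold changes of 1.35 (adjusted p = 6.70e-05), 2.35 (1.70e-22) and 1.72 (1.10e-06). RELB, an NF-kB subunit, was called in KO1 (1.12, adjusted p = 9.61e-18). MYD88, the adaptor of the receptor, passed the adjusted p threshold in all 3 tables without the fold threshold, at 0.75, 0.86 and 0.62.

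Of 26 genes known to respond to interleukin-1, 2 of 17 tested were called higher and 2 lower in CBFB KO, 7 of 22 higher and 3 lower in KO1, and 5 of 20 higher and 1 lower in KO2. All genes were called higher and lower at 1.72% and 1.26% (CBFB KO), 3.36% and 1.57% (KO1), and 3.90% and 1.58% (KO2). The medians were 0.24, 0.44 and 0.43, against -0.01, 0.00 and 0.02. CXCL1, a neutrophil chemokine, was called in all 3 at 1.85, 2.11 and 1.66, and ICAM1, an adhesion molecule for leukocytes, at 1.50, 1.55 and 1.57. In the RUNX1 tables CXCL8, another neutrophil chemokine, was at 2.28 and 1.49, TNFAIP3, a brake on NF-kB, at 2.10 and 1.39, and PTGS2, the inducible cyclooxygenase, at 2.19 and 1.37, and each was called in both.

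Other genes of the same list went down. PTGES, the prostaglandin E synthase that acts after the cyclooxygenase, was called lower in all 3 tables, at -2.24, -1.93 and -1.25. SAA1, an acute-phase protein, was called lower in CBFB KO (-1.53) and KO1 (-2.89) and was at -0.78 in KO2 (adjusted p = 0.177). IL6 had means of 4.59, 1.95 and 1.53 normalized counts and was not called.

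**Figure D5:**
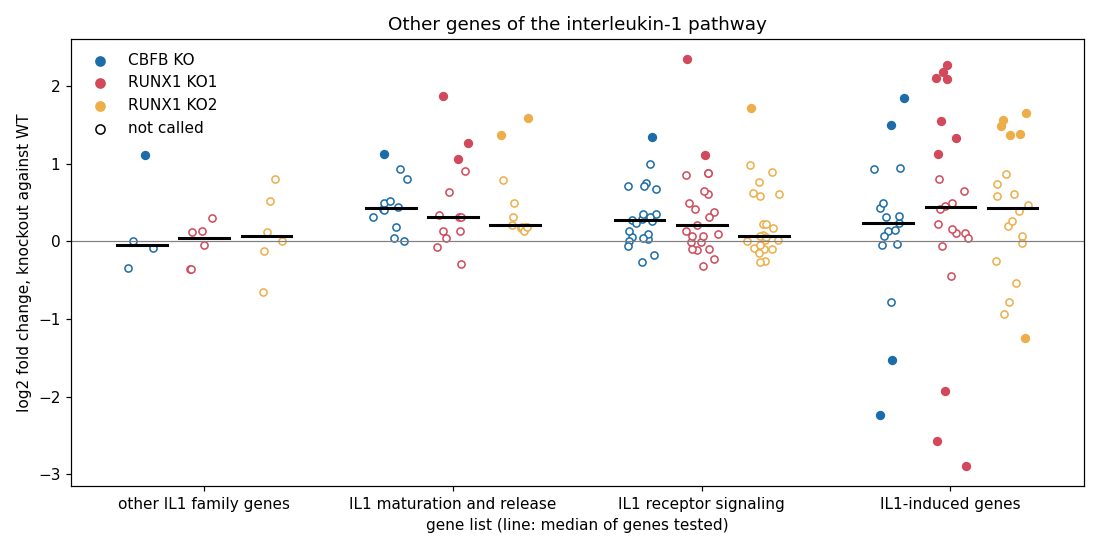
Log2 fold changes of the tested genes of 4 lists, by table; filled points were called, open points were not, and lines mark medians. The medians range from -0.04 to 0.44, and the list of genes that respond to interleukin-1 has called points on both sides of 0.

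The 5 genes whose 3 log2 fold changes lay nearest to those of IL1B, out of 10053 genes averaging at least 100 in every table, were FEZ1, FST, PARM1, TNFSF15 and SYNPO. The nearest, FEZ1, was at 3.64, 2.96 and 2.82, a Euclidean distance of 1.31 from IL1B. FST, which encodes the activin antagonist follistatin, was at 3.33, 2.78 and 2.91, a distance of 1.68. The likeness is over 3 comparisons, of which those of KO1 and KO2 share WT.

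Myeloid cells are another well-known source of interleukin-1. Of 10 myeloid markers, 7 were listed in each table, with summed means of 268.5, 344.4 and 353.2 normalized counts in the CBFB, KO1 and KO2 tables. PTPRC, which marks all leukocytes, was at 0.463 in the CBFB table and is not in the RUNX1 tables, and SPI1, the myeloid regulator, was at 0.302, 0.134 and 0.349. AIF1 and CD163 are in none of the tables. CD14 and CSF1R made up most of the sums. CD14 was at 142.4, 127.6 and 141.1, with log2 fold changes of 0.32, 0.22 and 0.50, and was not called. CSF1R was called higher in both RUNX1 clones (log2 fold change 1.10 and 1.15) and was at -0.01 in CBFB KO, and its part in the results above was not tested. Among the markers of mammary epithelium, KRT14 was called higher in CBFB KO (2.97) and KO1 (2.95) and has no row for KO2. TP63 was called higher in KO1 (1.08) and KRT17 in KO2 (1.27), and no marker of mammary epithelium was called lower. By adjusted p alone, 5 of 9 rose and 1 fell for CBFB KO, 7 and 1 of 9 for KO1, 3 and 0 of 8 for KO2. Of all genes tested, 19.7%, 39.5% and 14.8% passed in either direction, and these markers are abundant, where small changes pass more easily. The falling marker was KRT5, at -0.27 for CBFB KO (adjusted p = 0.0482) and -0.24 for KO1 (adjusted p = 0.0193). KRT5 stood at -0.26 for KO2 (adjusted p = 0.160). The part of these markers in the results was not tested either. Markers of lymphoid and endothelial cells summed to at most 2.27. In bulk RNA a change in the number of cells that express a gene and a change in RNA per cell cannot be told apart.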

How the data were processed

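RNA from 18 MCF10A samples in 5 groups was sequenced. The labels name a TruSeq mRNA kit, but the methods of the study mention depletion of ribosomal RNA instead, and it is not known which was used. The authors' processing notes, as submitted, name Trimmomatic, STAR, DESeq2 and the build hg19, with no version. The read counter is not given in the sources used here. The data are 3 tables that the authors deposited, each a comparison of a knockout with its WT, with 0 columns of per-sample values. The deposited mean normalized count was treated as a signal. The log2 fold change deposited by the authors has been pulled toward 0 where reads are few. The deposited score equals fold change over SE to within 4.9e-07. The authors' deposited p-value is that of a two-sided Wald test by DESeq2, and its adjusted value follows Benjamini and Hochberg. These comparison columns are the authors' own model, and no count model could be refitted.

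Genes with an adjusted p (means from 3.37, 0.748 and 1.03 in the CBFB, KO1 and KO2 tables) counted as tested, 14975, 16394 and 15636 of them. Called genes passed both thresholds of the study, an adjusted p under 0.05 and a change of 2-fold or more. Implied levels assume equal numbers of samples. The WT levels implied by the KO1 and KO2 tables differed by an SD of 0.03 (log2) around a median of 0.08 over 10174 genes. Intervals are 95% normal intervals from the deposited SE and cover no difference between clones. The response of CBFB KO less that of each RUNX1 clone was tested by a two-sided normal test over the combined SE. It was adjusted over 14940 and 14503 genes. The scripts were first tested on simulated data. Simulated fold changes were drawn without shrinkage, so that check could not show what shrinkage does to the test. Transcript length and GC content came from GENCODE 29, for at least 98.9% of genes averaging 100 or more. Gene order and promoters came from RefSeq (GRCh38.p14), which is not the build of the files. Computations used Python 3.11.15, pandas 2.3.3, NumPy 2.4.6, SciPy 1.17.1 and matplotlib 3.10.9.

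The members and gene lists were chosen with earlier results of these data known. All members were named. From each other list, genes called in at least 2 tables in the same direction were named, at most 8 per list by the size of their smallest called fold change, and any gene of a list with 5 or fewer calls could be named. CASP1, GSDME, MYD88, IL6, IL1RL2, IL18R1, SAA2, NFKBIB, IRAK1 and the genes beside the ligand run were named outside this rule, after their values were seen. For the pattern most like IL1B, the 5 nearest genes by Euclidean distance were named.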

Additional observations from a re-analysis of the deposited data

Results flagged for a closer look

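Effects that differed between CBFB KO and a RUNX1 clone by the test of the difference itself are given here as differences of log2 fold changes, CBFB KO minus the clone. For IL1B the difference was 1.48 against KO1 and 2.35 against KO2. For IL1RN it was -0.83 and -1.33, and for IL36RN -1.37 and -2.44. The lower means of IL1RN and IL36RN in the CBFB table go with stronger shrinkage of their fold changes, most for IL36RN. IL1B had its lower means in the RUNX1 clones, and the part of shrinkage in its differences was not tested. The myeloid marker CSF1R differed by -1.11 from KO1 (adjusted p = 6.56e-04) and by -1.16 from KO2 (adjusted p = 0.00518). The epithelial marker EPCAM differed by 0.59 from KO1 (adjusted p = 0.00198) and by 0.57 from KO2 (adjusted p = 0.0150). CDH1 (-0.40, adjusted p = 0.0106) and KRT6A (-0.63, adjusted p = 0.0186), of the same marker list, passed against KO1 only. Against KO2, CDH1 differed by -0.41 (adjusted p = 0.680) and KRT6A by -0.32 (adjusted p = 0.981). Among the other genes named from the lists, CASP1 differed by 0.48 from KO1 (adjusted p = 0.0236), SIGIRR by 0.81 from KO1 (adjusted p = 0.00205), SAA1 by 1.36 from KO1 (adjusted p = 0.00178) and PTGES by -0.99 from KO2 (adjusted p = 0.0438). These 4 genes did not pass against the other clone, where CASP1 differed by 0.25, SIGIRR by 0.31, SAA1 by -0.75 and PTGES by -0.31. The adjusted p of PTGES lies near the threshold. List genes not named above also passed against KO1 only: SAA2 by 1.79 (adjusted p = 5.21e-05), NFKBIB by 0.63 (adjusted p = 0.00688) and IRAK1 by 0.39 (adjusted p = 0.0247). Against KO2, SAA2 differed by 0.15, NFKBIB by 0.25 and IRAK1 by 0.38 (adjusted p = 0.149 for IRAK1). Experiment, clone and targeted gene cannot be told apart in any of these.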

How the results depend on the processing

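No paired analysis was possible because the tables hold no value per sample, and for the same reason no sample could be left out. Of 85 rechecks of members' fold changes, 81 kept their direction and side of the threshold, 2 newly passed it and 1 no longer did, as given for IL1R2 and IL1R1. The remaining 1 turned in direction: IL18 in KO1 went from -0.09 to 0.07 (adjusted p = 0.580) with the length and GC trend removed, and passed the threshold in neither case. All 36 rechecks of members' differences kept direction and side of the threshold. No count model was refitted in any recheck. Where only the adjustment of p was changed, the fold change stayed as deposited, so its direction could not turn. The medians taken out by centering were 0.00, -0.02 and 0.00 in CBFB KO, KO1 and KO2, so centering could move little either. With a fold threshold of 4, members called were 2 in KO1 and 3 in KO2 instead of 4 and 5, and genes of the pathway lists 1, 7 and 0 in CBFB KO, KO1 and KO2 instead of 7, 15 and 9. With no fold threshold these lists gave 24, 36 and 18, beside 19.7%, 39.5% and 14.8% of all genes tested in CBFB KO, KO1 and KO2. Restricted to genes with a mean of at least 100, 3 members were called in KO1 and 3 in KO2, list genes were 4, 11 and 5 in CBFB KO, KO1 and KO2, and 1 of 4 members tested differed between CBFB KO and each clone, since fewer genes were tested. IL1RN and IL36RN were not among those 4. No share of all genes was computed at a fold threshold of 4 or under this restriction. Counts at those settings therefore stand without one. The WT level implied by the KO2 table was 0.566 for IL33 and 347.7 for IL1RAP, against 0.349 and 388.0 from the KO1 table. Depth limits IL33 and IL36G, which had no adjusted p in any table, and the intervals of IL36RN and IL1R2.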
